A study of Mus musculus with 8 samples.

Results

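The RNAs described here are those encoded by the mouse mitochondrial genome. They were taken as every gene of the deposited expression table whose name starts with mt-, which gave 34 of 44343 genes. Of these, 13 are messenger RNAs, 2 are ribosomal RNAs and 19 are transfer RNAs. The rule reads only the gene name. RNA came from beta cells, the insulin-secreting cells of the pancreatic islet, sorted from mice in which the gene of the RNA editing enzyme Adar can be inactivated. All mice carried MipCreER, a tamoxifen-inducible Cre recombinase under an insulin promoter, and R26R-EYFP, a yellow fluorescent reporter switched on by Cre, and all received tamoxifen. The KO group had genotype Adar floxed/floxed and the HET group Adar floxed/+, so the HET group also carried 1 floxed allele and is not a wild-type control. At 1 month of age the mice were given 2 doses of 8 mg of tamoxifen, and YFP-positive cells were sorted 7 days afterwards. There were 4 libraries per group, called HET 1 to HET 4 and KO 1 to KO 4. How many mice stand behind a library is not labelled, so each p-value measures only the spread between libraries.

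The mitochondrial genome is a small circle transcribed from both strands into long precursors. Transfer RNAs lie between most of the messenger and ribosomal RNAs, and cutting them out at their ends frees the RNAs on either side. The messengers encode core subunits of the respiratory chain and of ATP synthase, the ribosomal RNAs build the mitochondrial ribosome, and the proteins that transcribe, cut, modify and degrade these RNAs are encoded in the nucleus. In beta cells the ATP made by this chain couples glucose to insulin release.

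The libraries held 5.37 to 15.9 M reads and differed in ways that genotype does not describe. Values below are normalized counts, the deposited counts divided by 1 factor per library, unless RPM, reads scaled to the library's total, are named. The median level of genes averaging 200 or more, set against the mean of the libraries, was 0.88 (KO 1), 0.96 (KO 2), −0.77 (KO 3) and −0.56 (KO 4) on the log2 scale and lay from −0.46 to 0.22 in HET. Xist was near absent in HET 1 (19.2) and Ddx3y, on the Y chromosome, in KO 3 (1.10) and KO 4 (0), so the sexes pooled in the libraries differed. Adar counts did not check the labels, since a gene-level count also holds exons outside the floxed part; Adar was 744 to 1187 in HET and 615 to 4030 in KO. The summed level of 8 beta cell markers was 618789 to 1273946 in HET and 219254 to 1345799 in KO, with Ins2 highest at a mean of 477208. The sums of 4 alpha cell markers (863 to 2557 in HET, 1123 to 2270 in KO), 4 macrophage markers (94.3 to 126 and 68.6 to 143) and 3 T cell markers (18.9 to 41.0 and 11.6 to 41.9) overlapped between the groups, and no marker was at 0 in every library. The sum of 3 ductal markers also overlapped (136 to 307 and 65.5 to 268). Of these the ductal Krt19 was lower in KO (log2 fold change −1.69 ± 0.40, SE, limma adjusted p = 0.00488), where 0.0233% of all genes were called lower. No other listed marker passed that test. In bulk RNA, fewer cells of a type and less RNA per cell cannot be told apart.

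Reads of the mitochondrial genome were mostly ribosomal. The ribosomal RNAs took 5.97%, 6.90%, 7.23% and 7.29% of the reads of HET 1 to HET 4 and 7.54%, 9.10%, 16.1% and 6.40% of those of KO 1 to KO 4. The groups overlapped, with KO 4 inside the HET range and KO 3 far above every other library. The mean was 6.85% ± 0.61 (SD, n = 4) in HET and 9.79% ± 4.37 (SD, n = 4) in KO, and 7.68% ± 1.36 (SD, n = 3) in KO without KO 3. The messengers took 0.927%, 1.02%, 1.03% and 1.05% in HET and 0.788%, 1.284%, 1.306% and 0.824% in KO. KO 1 and KO 4 thus lay below all HET libraries and KO 2 and KO 3 above them. The transfer RNAs took 0.00440%, 0.00365%, 0.00609% and 0.00468% in HET and 0.00848%, 0.00798%, 0.0149% and 0.00610% in KO. Every KO library was above every HET library, but only just: the 95% exact binomial interval was 0.00567% to 0.00654% in HET 3, on 781 reads, and 0.00560% to 0.00663% in KO 4, on 553 reads. Such intervals cover counting error only.

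**Figure D1:**
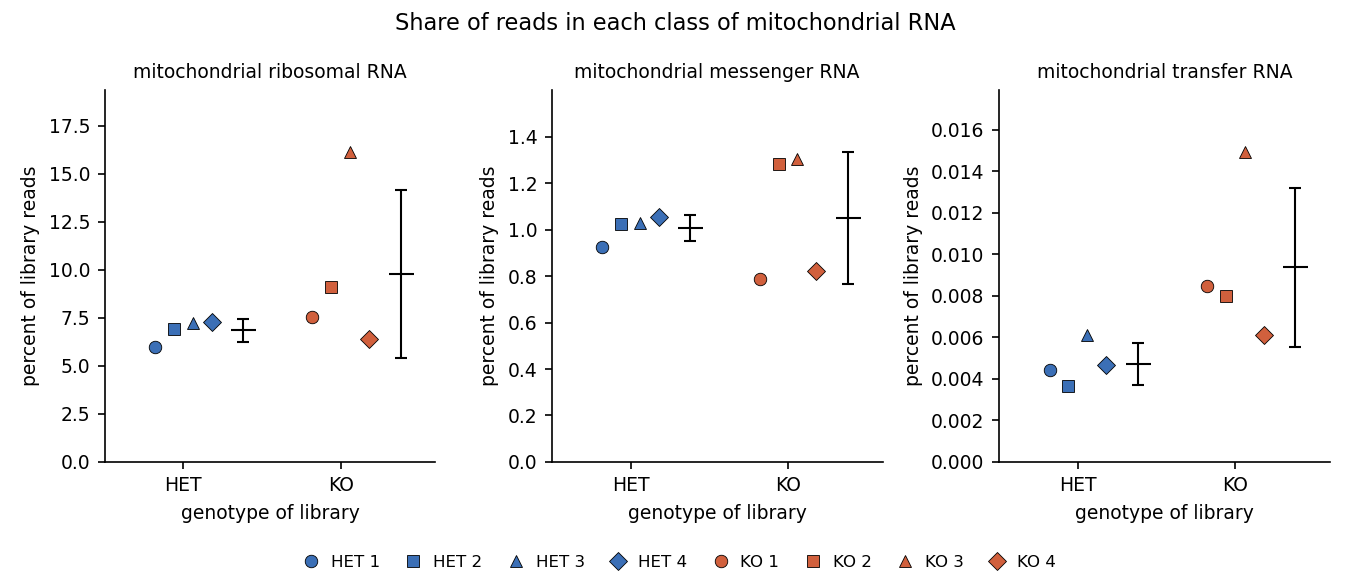
Percent of each library's reads (vertical axes, each from 0) in mitochondrial ribosomal, messenger and transfer RNAs, with 1 point per library and the mean with SD of the 4 libraries of each genotype beside the points. Ribosomal and messenger shares of the genotypes overlap, and KO 3 is the highest library in all 3 panels (16.1%, 1.306% and 0.0149%).

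Of the 34 genes, 24 had a mean of at least 10 and were tested for a difference between genotypes: 11 messengers, both ribosomal RNAs and 11 transfer RNAs. In KO, 5 of the 24 were higher and 0 lower (limma, adjusted p under 0.05 over all 21498 genes tested), against 0.921% of all tested genes higher and 0.0233% lower. All 5 were transfer RNAs. At an unadjusted p under 0.05, 10 of the 24 were higher and 0 lower, against 4.05% and 2.70% of all genes. The fold change was positive for 20 of the 24, and its median on the log2 scale was 0.56, beside 0.05 over all tested genes. Among genes averaging at least 50, it was 0.52 for 17 mitochondrial RNAs, beside 0.25 over all genes. No mitochondrial RNA had 4 KO values all above or all below the 4 HET values at the deposited scaling, where 3.08% of all genes did. Scaling moved the count: 1 of the 24 was higher in RPM (1.01% of all genes) and with TMM scaling (0.637%), 1 with DESeq2 (1.25% of the genes it gave an adjusted p) and 0 with edgeR (0.673%), where 6 passed at an unadjusted p under 0.05 (4.75% of all genes). With TMM factors from genes averaging 200 or more, 0 of 9 tested were called (6.03%). That fit held no transfer RNA, since the highest of them averaged 148, so it could not test the 5. Leaving out 1 library gave 1 without HET 1 (0.609%), 7 without HET 3 (0.830%) and 9 without KO 4 (1.31%). With KO 1 and KO 2 as the only KO libraries 18 were called higher, where 47.4% of all genes were, and with KO 3 and KO 4 only 1 (mt-Th), where 1.22% were. In the latter 10 of 23 tested had positive fold changes and their median turned to −0.06, beside −0.14 over all genes. With the 5 libraries that held both sexes 17 were called higher, against 42.3%. With all 8 libraries, 20 of the 24 were positive in RPM (median 0.39) and 18 with TMM scaling (median 0.34). The median of all genes was −0.10 in RPM and −0.16 with TMM scaling. The part of single libraries in the positive median was not tested.

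**Figure D2:**
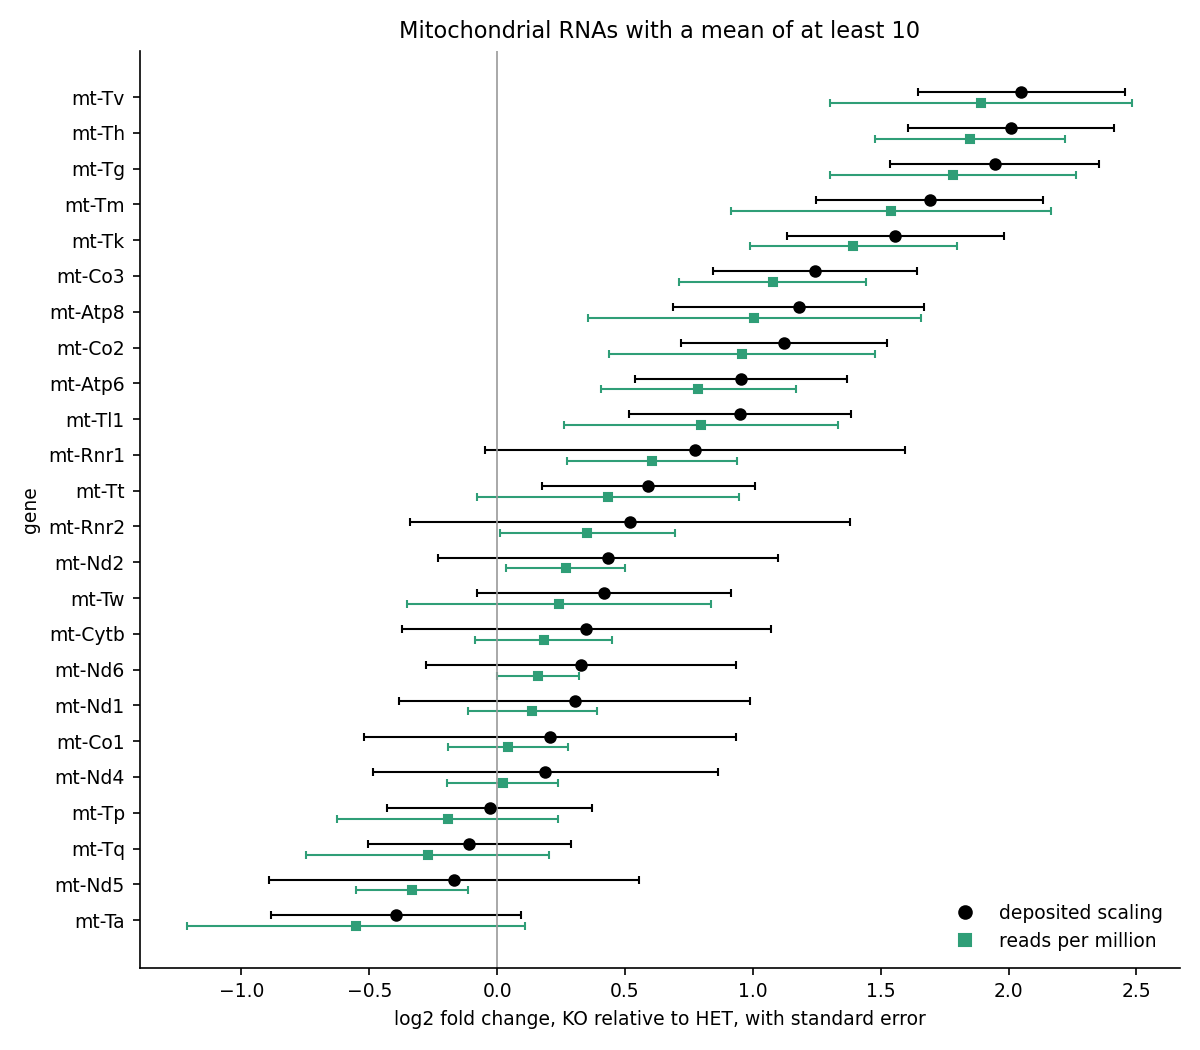
Log2 fold change of KO relative to HET (horizontal axis) for the 24 mitochondrial RNAs with a mean of at least 10, with bars of 1 standard error, from the deposited scaling (black circles) and from RPM (green squares). The transfer RNAs mt-Tv, mt-Th, mt-Tg, mt-Tm and mt-Tk have the highest values, 1.56 to 2.05 at the deposited scaling, and mt-Nd5 and 3 transfer RNAs of the minus strand lie below 0.

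The transfer RNAs called higher in KO at the deposited scaling are those for glycine (mt-Tg), histidine (mt-Th), lysine (mt-Tk), methionine (mt-Tm) and valine (mt-Tv). All are encoded on the plus strand of the annotation. They are shown with mt-Tp (proline) and mt-Tq (glutamine), the most abundant transfer RNAs of the minus strand, which did not pass the test. The DNA sequence of each gene is given 5′ to 3′ on its own strand from the GENCODE M21 transcripts of build mm10, with the anticodon, the triplet that pairs with the codon, in capitals. The genes are 65 to 71 bases long and no 2 of them share an anticodon.
mt-Tv: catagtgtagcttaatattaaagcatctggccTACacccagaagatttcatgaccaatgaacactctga
mt-Tm: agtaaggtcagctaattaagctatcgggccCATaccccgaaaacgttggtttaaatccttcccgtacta
mt-Tk: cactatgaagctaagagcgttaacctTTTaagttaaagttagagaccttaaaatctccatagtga
mt-Tg: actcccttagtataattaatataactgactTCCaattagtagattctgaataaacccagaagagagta
mt-Th: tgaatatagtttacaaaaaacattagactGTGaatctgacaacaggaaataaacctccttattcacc
mt-Tp: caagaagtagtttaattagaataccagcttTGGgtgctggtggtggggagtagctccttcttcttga
mt-Tq: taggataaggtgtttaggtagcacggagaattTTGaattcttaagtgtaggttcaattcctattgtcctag

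mt-Th (ENSMUSG00000064364.1, chromosome M, 11546 to 11612) gave the steadiest difference. Its normalized count was 21.8, 28.8, 85.7 and 21.9 in HET 1 to HET 4 and 175, 274, 142 and 50.01 in KO 1 to KO 4. KO 4 was below HET 3, and the other 3 KO libraries were above all HET libraries. The log2 fold change, on the log2(value + 1) scale used throughout, was 2.01 ± 0.40 (SE, limma adjusted p = 0.000164). In RPM the groups did not overlap: mt-Th was at 2.87, 3.27, 7.80 and 3.33 in HET and at 12.3, 16.4, 24.0 and 9.26 in KO. It was the only mitochondrial RNA of the 24 without overlap on that scale, where 6.80% of all genes were higher without overlap. Adjusted p-values for mt-Th were 0.0359 in RPM, 0.0427 with TMM scaling, 0.0222 with DESeq2 and 0.0783 with edgeR.

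mt-Tg (ENSMUSG00000064359.1, 9391 to 9458) stood at 16.7, 27.5, 141 and 37.3 in HET and at 212, 302, 171 and 53.0 in KO, a log2 fold change of 1.95 ± 0.41 (SE, limma adjusted p = 0.00046). mt-Tk (ENSMUSG00000064355.1, 7700 to 7764) stood at 35.9, 51.3, 179 and 46.2 in HET and at 259, 321, 232 and 61.9 in KO. In both, HET 3 was well above the other HET libraries and above KO 4. The log2 fold change of mt-Tk was 1.56 ± 0.42 (SE, limma adjusted p = 0.028). mt-Tv (ENSMUSG00000064338.1, 1025 to 1093), which lies between the ribosomal RNAs, stood at 5.12, 21.3, 79.7 and 25.1 in HET and at 153, 168, 98.2 and 31.6 in KO. Its log2 fold change was the highest of the 24, at 2.05 ± 0.40 (SE, limma adjusted p = 0.000137), and HET 1 was its lowest library. mt-Tm (ENSMUSG00000064344.1, 3845 to 3913) was at 2.56, 8.75, 26.6 and 8.91 in HET and at 48.4, 56.9, 29.8 and 10.7 in KO, with a log2 fold change of 1.69 ± 0.44 (SE, limma adjusted p = 0.0179). All 5 shared 1 pattern over the libraries: KO 1 to KO 3 lay above every HET library, and KO 4 lay below HET 3. In RPM and with TMM scaling, none of mt-Tg, mt-Tk, mt-Tm and mt-Tv passed the adjusted threshold. Without HET 1 only mt-Th did.

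No transfer RNA of the minus strand was called. Of 13 encoded on the plus strand, 8 were tested and all 8 had positive fold changes, with a median log2 value of 1.62. Of 6 on the minus strand, 3 were tested and 0 of 3 were positive, with a median of −0.11. With DESeq2 mt-Tp turned to 0.12, and no test was made between the strands. mt-Tp (ENSMUSG00000064372.1, 15356 to 15422) was at 80.7, 60.01, 42.9 and 72.1 in HET and at 136, 47.9, 55.1 and 38.1 in KO. mt-Tq (ENSMUSG00000064343.1, 3772 to 3842) was at 57.6, 55.0, 24.9 and 35.6 in HET and at 73.5, 32.4, 36.4 and 23.8 in KO. The genotypes overlapped in both, and HET 3, the highest HET library for the 5 transfer RNAs called higher, was the lowest HET library here. It was also the lowest HET library for mt-Tw of the plus strand, which was not called. The log2 fold changes were −0.03 ± 0.40 (SE) for mt-Tp (limma adjusted p = 0.997) and −0.11 ± 0.40 (SE) for mt-Tq (limma adjusted p = 0.985). Reads of plus-strand transfer RNAs divided by those of minus-strand ones came to 0.642, 1.23, 7.05 and 1.41 in HET and 4.01, 12.8, 6.78 and 3.16 in KO. HET 3 again lay among the KO libraries. The strand setting of the counting is not given in the sources used here, so reads of an RNA antisense to a gene cannot be told apart from its own. The 8 transfer RNAs under a mean of 10 (mt-Tf, mt-Ti, mt-Tn, mt-Ty, mt-Td, mt-Tr, mt-Tl2 and mt-Te) had values of 0 to 13.4 and were not tested, and 6 of them had at least 1 library at 0, which allows up to 3 reads.

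Several short RNAs made in the nucleus were high in the same libraries. The 9 examined were chosen after their values were seen. The Y RNA Rny3 was at 154, 229, 786 and 434 RPM in HET and at 840, 1008, 1919 and 651 in KO. The 5.8S ribosomal RNA n-R5-8s1 was at 54.5, 47.9, 152 and 71.6 in HET and at 150, 185, 356 and 111 in KO. HET 3 was the highest HET library and KO 3 the highest of all in both, as for mt-Th. Of the 9, all had positive fold changes at the deposited scaling, with a median log2 value of 1.39. The spliceosomal Rnu11 alone was called there (limma adjusted p = 0.0454, where 0.921% of all genes were called higher), and not in RPM (0.0836), with TMM scaling (0.195), with mitochondrial messenger scaling (0.0557), with edgeR (0.252) or with DESeq2 (0.134). In RPM, HET 3 was the highest HET library for 8 of the 9. The exception was Rn7sk, where HET 3 (4920) lay below HET 1 (5546) and HET 2 (5898), and KO 1, KO 2 and KO 4 (4564, 4226 and 3747) lay below every HET library. Its log2 fold change was 0.19 at the deposited scaling and −0.03 with TMM scaling. The part of short RNA levels in the transfer RNA difference was not tested.

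**Figure D3:**
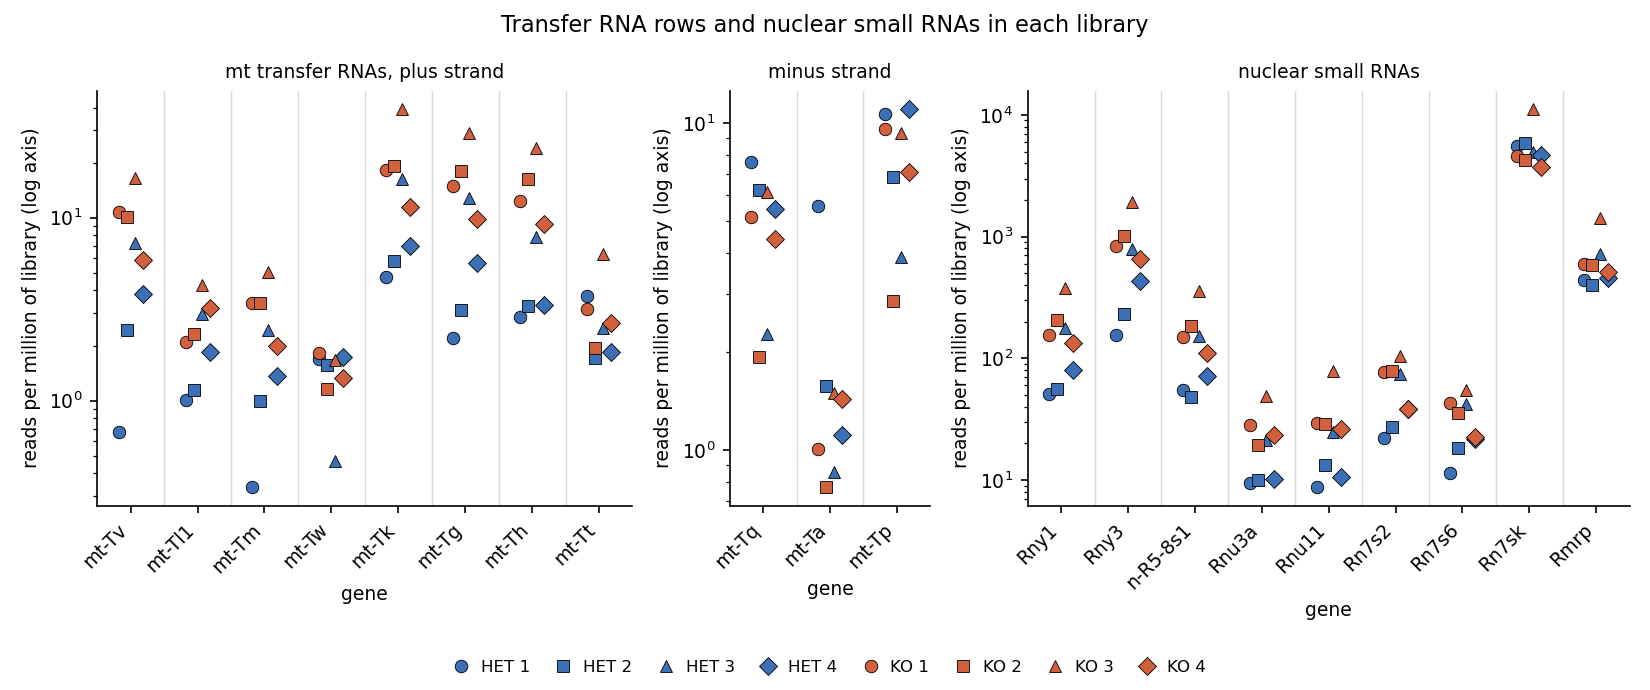
RPM (log axes) for the transfer RNAs with a mean of at least 10, of the plus strand (left) and the minus strand (middle), and for 9 nuclear small RNAs (right), with 1 point per library. mt-Th separates the KO libraries (9.26 to 24.0) from the HET libraries (2.87 to 7.80). On that scale 6.80% of all genes were higher in KO without overlap. The minus-strand genes overlap, and KO 3 is highest for most plus-strand genes and small RNAs.

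The ribosomal RNAs were not called different, but the proportion of their reads to each other differed between genotypes. mt-Rnr1 (ENSMUSG00000064337.1, chromosome M, 70 to 1024), the RNA of the small ribosomal subunit, was at 119207, 154372, 218731 and 137573 in HET and at 318603, 470228, 300232 and 105250 in KO. KO 4 was the lowest of all 8 libraries, and KO 1 to KO 3 lay above every HET library. The log2 fold change was 0.77 ± 0.82 (SE, limma adjusted p = 0.945). mt-Rnr2 (ENSMUSG00000064339.1, 1094 to 2675), the RNA of the large subunit, was at 333812, 452287, 576013 and 340621 in HET and at 754341, 1056244, 654908 and 240189 in KO. It was ordered among the libraries like mt-Rnr1, with KO 4 lowest and KO 2 highest, and its log2 fold change was 0.52 ± 0.86 (SE, limma adjusted p = 0.962).

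The ratio of mt-Rnr2 to mt-Rnr1 within a library does not depend on the scaling between libraries. The protocol of the library kit removes cDNA of ribosomal RNA, however, and the part of this removal in the ratio was not tested. The ratio was 2.80, 2.93, 2.63 and 2.48 in HET and 2.37, 2.25, 2.18 and 2.28 in KO, with no overlap. The mean log2 ratio was lower in KO by 0.25 ± 0.06 (SE), so that the ratio fell to 0.839 of its HET level (two-sided exact permutation test, p = 0.0286, the smallest that 70 arrangements of 4 against 4 libraries allow). It was the only ratio tested. Leaving out any 1 library kept the difference between −0.30 and −0.22. Each of these fits then reached p = 0.0571 in the two-sided exact permutation test, the smallest that 35 arrangements allow.

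Ribosomal reads also stood higher against messenger reads, where the part of the cDNA removal was not tested either. The ratio was 6.44, 6.73, 7.03 and 6.91 in HET and 9.56, 7.09, 12.3 and 7.77 in KO, again with no overlap, although KO 2 exceeded HET 3 by little. The mean was 6.78 ± 0.26 (SD, n = 4) in HET and 9.19 ± 2.35 (SD, n = 4) in KO, and 8.14 ± 1.28 (SD, n = 3) without KO 3. When the libraries were instead scaled to equal messenger reads of the mitochondrial genome, 4 of the 24 RNAs lay higher in KO without overlap (mt-Rnr1, mt-Th, mt-Tm and mt-Tv), where 1.42% of all genes did, and 1 lay lower (mt-Nd5), where 1.17% did. Of these only mt-Th passed the test (limma adjusted p = 0.0365), where 0.335% of all genes were called higher.

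**Figure D4:**
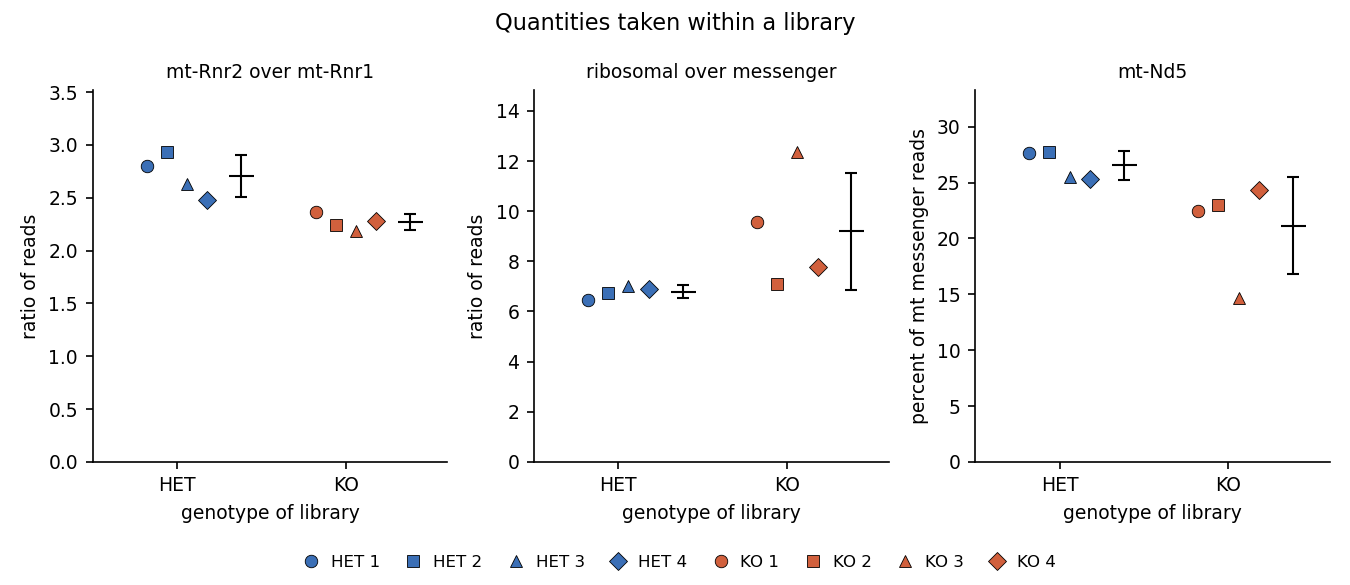
Ratio of mt-Rnr2 to mt-Rnr1 reads, ratio of ribosomal to messenger reads, and percent of mitochondrial messenger reads from mt-Nd5 (vertical axes, each from 0), with 1 point per library and the mean with SD of 4 libraries beside them. The genotypes do not overlap in any panel, with the first ratio at 2.48 to 2.93 in HET and 2.18 to 2.37 in KO, and KO 3 is farthest from HET in each.

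No messenger RNA passed the test, although 10 of the 11 tested had positive fold changes, with a median log2 value of 0.35. Per kilobase of gene and over all 8 libraries, mt-Cytb was highest at 20154, followed by mt-Co1 at 16348, mt-Nd5 at 12868, mt-Nd1 at 10699, mt-Nd2 at 6360, mt-Nd4 at 5743 and mt-Nd6 at 4180. Neighbours in this order kept it in 8 of 8 libraries, except mt-Nd5 over mt-Nd1 in 7 and mt-Nd2 over mt-Nd4 in 6. mt-Cytb, a subunit of complex III, had normalized counts of 14181, 18492, 26156 and 15524 in HET and 24342, 55038, 20537 and 10178 in KO. mt-Co1, the catalytic subunit of cytochrome c oxidase, had 18132, 23744, 27741 and 17928 in HET and 31041, 50580, 21729 and 11170 in KO. For both, KO 2 was highest and KO 4 lowest of all 8 libraries, so the KO range enclosed the HET range. The log2 fold changes were 0.35 ± 0.72 (SE) for mt-Cytb (limma adjusted p = 0.967) and 0.21 ± 0.73 (SE) for mt-Co1 (limma adjusted p = 0.983). mt-Nd6, a complex I subunit and the only messenger of the minus strand, was at 1886, 1912, 2031 and 1357 in HET and 3118, 4296, 1620 and 1134 in KO. Its log2 fold change was 0.33 ± 0.61 (SE, limma adjusted p = 0.964), and neither strand's long messengers were called.

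mt-Nd5, a proton-pumping subunit of complex I, was the only tested messenger with a negative fold change, −0.17 ± 0.72 on the log2 scale (SE, limma adjusted p = 0.988), which turned to 0.10 with DESeq2. Its normalized count was 19441, 24968, 28833 and 17505 in HET and 25233, 49570, 11383 and 10830 in KO. As a share of mitochondrial messenger reads it was 27.6%, 27.7%, 25.5% and 25.3% in HET and 22.5%, 23.0%, 14.7% and 24.3% in KO. Every KO share was below every HET share, and KO 3 was far below the rest. The mean was 26.5% ± 1.31 (SD, n = 4) in HET and 21.1% ± 4.36 (SD, n = 4) in KO, and 23.3% ± 0.95 (SD, n = 3) without KO 3. The shares of mt-Co1, mt-Cytb, mt-Nd1, mt-Nd2, mt-Nd4 and mt-Nd6 overlapped between genotypes, and no test of the shares was made.

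The other 6 messengers were far lower per kilobase than their neighbours on the genome. mt-Atp6 stood at 170, mt-Co2 at 105, mt-Co3 at 91.9, mt-Atp8 at 85.6, mt-Nd4l at 29.4 and mt-Nd3 at 23.7 per kilobase, all below mt-Nd6 in 8 of 8 libraries. The order of mt-Co2, mt-Co3 and mt-Atp8 changed from library to library (mt-Co2 was above mt-Co3 in 5 of 8 and mt-Co3 above mt-Atp8 in 4), as did that of mt-Nd4l and mt-Nd3 (5 of 8). Apart from transfer RNAs, all 6 lie next to each other on the mitochondrial genome, and a near-identical copy of this stretch is annotated on the minus strand of chromosome 1, from 24611535 to 24616197 (mm10), as 7 gene models. The copies of mt-Co2 (Gm28661, 681 of 684 bases), mt-Atp6 (Gm10925, 678 of 681), mt-Co3 (Gm28437, 783 of 784) and mt-Nd4l (Gm10222, 294 of 297) were 100% identical over the aligned bases. No copy of mt-Atp8 is annotated as a gene, but the bases between the mt-Co2 and mt-Atp6 copies number 233, as many as on the mitochondrial genome. mt-Nd4 and mt-Co1 are copied only in part there (876 of 1378 and 483 of 1545 bases). Of the transfer RNAs called higher, mt-Tk and mt-Tg lie between genes of this stretch, and mt-Th, mt-Tm and mt-Tv lie outside it. How reads that fit both places were counted is not given in the sources used here, so the levels of these 6 messengers are uncertain, and the part of the copy in their low values was not tested.

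The copy of mt-Nd3 differed by 1 base in 345 and was given more reads than the gene. The first 60 bases of each gene are shown because the difference, T3C counted from 1 at the 5′ end of mt-Nd3, lies in them, with position 3 in capitals.
mt-Nd3: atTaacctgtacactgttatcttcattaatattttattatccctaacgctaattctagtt
Gm28438: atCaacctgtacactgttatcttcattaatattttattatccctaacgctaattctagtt
mt-Nd3, a complex I subunit, held 0, 7.50, 15.4 and 1.62 in HET and 12.5, 22.0, 4.41 and 2.38 in KO, a mean of 8.24, which was too low to be tested. Gm28438 held a mean of 272, from 119 to 655, which is 33.0-fold more. A read that does not cover position 3 and stays within the aligned bases fits both genes equally. The 5 copies identical over their aligned bases (Gm10925, Gm28661, Gm28437, Gm10222 and Gm28439) had means of 5.77, 3.70, 4.47, 4.74 and 2.02. mt-Nd4l, also a complex I subunit, held 6.41, 3.75, 11.1 and 4.86 in HET and 17.03, 19.4, 5.51 and 1.79 in KO and was not tested either. Adding the copies' reads to their genes moved the messenger share of a library by little, for example from 0.927% to 0.929% in HET 1.

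**Figure D5:**
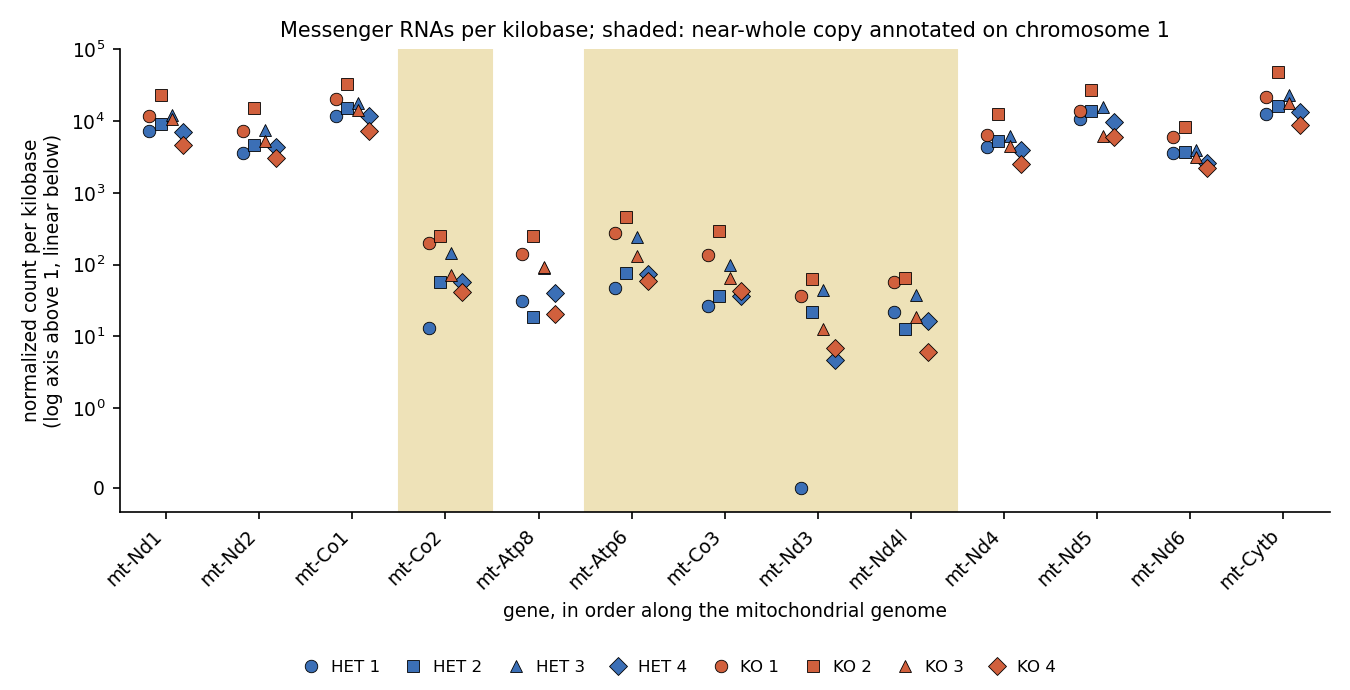
Normalized count per kilobase (log axis above 1, linear below) of the 13 mitochondrial messengers in their order along the genome, with 1 point per library and shading where a copy of nearly the whole gene is annotated on chromosome 1. The 5 shaded genes and mt-Atp8 between them lie at means of 23.7 to 170 per kilobase, and the other 7 at 4180 to 20154.

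Within the copied stretch the messengers with a mean of at least 10 had higher fold changes than the others, a median log2 value of 1.15 for 4 genes (mt-Co2, mt-Co3, mt-Atp6 and mt-Atp8) and 0.30 for the other 7. mt-Co3, a cytochrome c oxidase subunit, was at 20.5, 28.8, 76.3 and 28.4 in HET and 108, 230, 50.7 and 33.9 in KO, with a log2 fold change of 1.24 ± 0.40 (SE, limma adjusted p = 0.136). mt-Co2, which carries the site that takes electrons from cytochrome c, was at 8.97, 38.8, 99.4 and 38.9 in HET and 135, 173, 49.6 and 28.6 in KO, with a log2 fold change of 1.12 ± 0.40 (SE, limma adjusted p = 0.281). HET 3 was the highest HET library in both and KO 4 the lowest KO library, as in the transfer RNAs called higher, although KO 3 was here below HET 3. No test was made between these sets of messengers. The ATP synthase subunits mt-Atp6 and mt-Atp8 had log2 fold changes of 0.95 ± 0.41 (SE, limma adjusted p = 0.547) and 1.18 ± 0.49 (SE, limma adjusted p = 0.502).

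Of 52 nuclear genes whose proteins transcribe, copy, cut, modify or degrade mitochondrial nucleic acids, all were tested and 0 were called in either direction (limma), against 0.921% of all genes higher and 0.0233% lower. Before adjustment, p was under 0.05 for 10 higher and 0 lower, against 4.05% and 2.70%. The fold change was positive for 47 of 52, with a median log2 value of 0.61 beside 0.05 over all genes, and 7 (Mgme1, Mrm1, Mrm3, Nsun3, Pnpt1, Polg2 and Trmt10c) lay higher in KO without overlap, where 2.19% of all genes did. Among genes averaging at least 50, the median was 0.62 for 46 of the 52, beside 0.25 over all genes. The counts moved with the tool and the libraries. With edgeR 1 was called (Trmt10c, against 0.673% of all genes), with 17 at an unadjusted p under 0.05 (4.75%). DESeq2 called 0 (1.25% of the genes it gave an adjusted p). There 17 had an unadjusted p under 0.05, against 3.65% of all 44343 genes, with no filter on level. The limma fit on RPM called 6 (Fastkd2, Mrm3, Pnpt1, Tfam, Trmt10c and Trnt1, against 1.01% of all genes). With KO 1 and KO 2 as the only KO libraries 44 were called higher, where 47.4% of all genes were. With KO 3 and KO 4 only, 0 of 51 were called (1.22% of all genes). There 28 were positive and the median was 0.05, beside −0.14 over all genes. With all 8 libraries, 46 of 52 were positive in RPM (median 0.45, beside −0.10 over all genes). With TMM scaling 44 were (median 0.40, beside −0.16). The part of single libraries in the positive values was not tested.

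Among the proteins that modify ribosomal RNA, the methyltransferase Mrm3 had the smallest p of the 52. It was at 35.9, 33.8, 54.0 and 34.0 in HET and 204, 142, 59.6 and 61.9 in KO, with no overlap, and its log2 fold change was 1.38 ± 0.40 (SE, limma adjusted p = 0.0626). Its relative Mrm1 had a log2 fold change of 1.18 ± 0.41 (SE, limma adjusted p = 0.232). Trmt10c, a subunit of the enzyme that cuts precursors at the 5′ end of transfer RNAs, was at 146, 149, 223 and 159 in HET and 638, 581, 276 and 235 in KO, with a log2 fold change of 1.24 ± 0.48 (SE, limma adjusted p = 0.407). Pnpt1, the polynucleotide phosphorylase that degrades mitochondrial RNA, was at 224, 268, 294 and 237 in HET and 1339, 739, 313 and 432 in KO. At the deposited scaling KO 1 and KO 2 were far above the rest for Trmt10c and Pnpt1, as for the median level of all abundant genes. In RPM KO 2 was the lowest KO library for both, and every KO library lay above HET, where 6.80% of all genes did. Trmt10c was at 44.8, 34.6, 46.5 and 43.6 RPM in KO and at most 24.2 in HET. Pnpt1 was at 94.1, 44.1, 52.9 and 80.1 RPM in KO and at most 36.1 in HET. The log2 fold change of Pnpt1 was 1.25 ± 0.51 (SE, limma adjusted p = 0.482). Of the transcription machinery, Tfam, which packages and activates the mitochondrial genome, was at 195, 195, 242 and 152 in HET and 722, 542, 257 and 209 in KO, with a log2 fold change of 0.97 (limma adjusted p = 0.722). The mitochondrial RNA polymerase Polrmt had 0.43 (limma adjusted p = 0.938). Mgme1, a nuclease of mitochondrial DNA copying, had 1.13 (limma adjusted p = 0.313). Of the pair that stabilizes messengers, Slirp had 0.80 (limma adjusted p = 0.739) and Lrpprc −0.06 (limma adjusted p = 0.995).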

How the data were processed

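The deposited table holds signal values that the authors call normalized counts, for 8 libraries, 4 HET and 4 KO, grouped by their titles. Per the labels' protocols, libraries were made with Takara's SMARTer Stranded Total RNA-Seq kit v3 for pico input, which primes total RNA at random. The protocol of this kit removes cDNA of ribosomal RNA, and how completely it did so in each library was not measured here. Per the submitters' processing notes, which give no role or order, STAR 2.7.3a, HTSeq, DESeq2 1.28.1, UMI-tools and FastQC 0.11.8 were used, with build mm10. Annotation, counting mode, strand setting and duplicate removal are not given in the sources used here.

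All values (100% per library) lay within 0.001 of a whole number of steps, and whole reads were recovered from them. Replicates within a group differed beyond counting noise, so none was counted as a repeat of another (chi-square per degree of freedom at least 3.15 in HET, 24.6 in KO). Symbols were matched to GENCODE M21 (42961 of 44343). The annotated mitochondrial genes mt-Tc, mt-Ts1 and mt-Ts2 are not analysed here. Copies were sought with BLAST 2.17.0 among annotated transcripts, at an identity of at least 97% over more than 60 bases.

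The test was limma 3.58.1 in R 4.3.3 on log2(value + 1), two-sided, over genes averaging at least 10, with eBayes trend and robust settings, genotype as the only term and Benjamini-Hochberg adjustment over 21498 genes. At the deposited scaling its estimate of spread was the same for genes of like level (128988 degrees of freedom in all, against a median of 17.3 with TMM scaling and 12.2 in RPM), so its p-values rest on a shared spread. Alternatives were pseudocounts of 0.5 and 8, no filter, means of at least 50 or 200, TMM, RPM and mitochondrial messenger scaling, edgeR 4.0.16 and DESeq2 1.42.0 on whole reads, a replicate block, leaving out each library and pairs of KO libraries, and adding the copies' reads. Libraries of both sexes only was added after seeing the data. Python 3.11.15 (numpy 2.4.6, pandas 2.3.3, scipy 1.17.1, matplotlib 3.10.9) gave ratios, exact tests and figures. The limma step was tested on simulated counts without shifts in level between libraries, so that run does not cover the shifts seen here. Named in full were the ribosomal RNAs, every mitochondrial RNA called, the messengers of highest (3) and lowest (2) mean per kilobase and of smallest p (2), mt-Nd6, the 4 transfer RNAs of highest mean and the 2 of smallest p, and of the nuclear factors those called, the 4 of smallest p and Polrmt, Tfam, Lrpprc, Slirp and Pnpt1. The rule for the members reads only names, but it and the lists were chosen with earlier results of these data known.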

Additional observations from a re-analysis of the deposited data

Results flagged for a closer look

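In 62 groups of 4 libraries the highest or lowest value was compared with the nearest of the others, as a share of the group's range. In 7 the gap passed Dixon's 95% critical value, where chance gives about 1 in 20. Each was the highest HET value, and each was HET 3. The transfer RNAs were mt-Tk at 179 (nearest 51.3), mt-Tg at 141 (nearest 37.3) and mt-Th at 85.7 (nearest 28.8). The others were mt-Co3 at 76.3 (nearest 28.8), Mrm3 at 54.0 (nearest 35.9), Trmt10c at 223 (nearest 159), and the ratio of plus-strand to minus-strand transfer RNA reads at 7.05 (nearest 1.41). Without HET 3, 7 mitochondrial RNAs were called higher in KO in place of 5 (0.830% of all genes, against 0.921%).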

How the results depend on the processing

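The number of mitochondrial RNAs called higher in KO was 5 (0.921% of all genes). It was 1 with TMM scaling (0.637%), in RPM (1.01%), with mitochondrial messenger scaling (0.335%) and with DESeq2 (1.25%). It was 0 with edgeR (0.673%) and from 1 to 9 without 1 library. With TMM factors from genes averaging 200 or more 0 of 9 tested were called, but that fit held none of the 5. The number was 1 without HET 1 (0.609% of all genes) and 9 without KO 4 (1.31%). With KO 1 and KO 2 only it was 18, with KO 3 and KO 4 only 1, and with libraries of both sexes 17, where 47.4%, 1.22% and 42.3% of all genes were called higher. Nuclear factors called higher numbered 0 (0.921% of all genes), but 1 with TMM scaling (0.637%), 6 in RPM (1.01%) and 1 with edgeR (0.673%). With TMM factors from genes averaging 200 or more, 5 of 17 tested were called (6.03%). Without 1 library 0 to 2 were called, with 2 without KO 3, where 338 of 21061 genes were. With KO 1 and KO 2 only 44 were called (47.4%), and with libraries of both sexes 40 (42.3%). mt-Th was called in 20 of 21 alternatives (adjusted p from 1.18e-15 to 0.0783), mt-Tg in 13, mt-Tv in 12, mt-Tk in 9 of 21 and mt-Tm in 9 of 20, all in the same direction. Of 471 values of the 22 named genes under alternatives, 367 kept direction and side of the threshold, 43 gained a call, 41 lost one and 20 turned direction. Log2 fold changes that turned were mt-Rnr2 at −0.065, mt-Nd6 at −0.39 and Polrmt at −0.27 with KO 3 and KO 4 only. mt-Cytb was −0.32 with KO 3 and KO 4 only and from −0.071 to 0.74 without 1 library. mt-Co1 was −0.012 with TMM scaling, −0.035 with TMM factors from genes averaging 200 or more, −0.47 with KO 3 and KO 4 only and from −0.13 to 0.59 without 1 library. mt-Nd5 was 0.10 with DESeq2, 0.67 with KO 1 and KO 2 only, 0.60 with libraries of both sexes and from −0.61 to 0.12 without 1 library. Lrpprc was 0.15 with DESeq2, 0.78 with KO 1 and KO 2 only, 0.70 with libraries of both sexes and from −0.42 to 0.24 without 1 library. The cause was not tested. The log2 ratio of mt-Rnr2 to mt-Rnr1 ran from −0.30 to −0.22 without 1 library, where p could not go below 0.0571 (exact permutation test). Pairing by replicate number could not be judged: deviations of same-numbered libraries at the deposited scaling correlated at −0.28, 0.27, −0.55 and 0.63. Each HET library correlated in 1 direction with KO 1 and KO 2 and in the other with KO 3 and KO 4. With the replicate block, 5 mitochondrial RNAs were called higher, and an exact sign-flip of the 4 paired log2 ratios (−0.25) gave p = 0.125, the smallest that 16 allow. Depth limits the low RNAs: mt-Th rests on 17 to 212 reads per library, and mt-Nd3 on 0 to 18. mt-Tm, also called, rests on 2, 7, 31 and 11 reads in HET 1 to HET 4. For mt-Tv these were 4, 17, 93 and 31.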
